A study of Mus musculus with 14 samples.

Results

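The smooth muscle contractile genes are 10 genes of the actin and myosin apparatus of smooth muscle: Acta2, Actg2, Tagln, Myl9, Lmod1, Cnn1, Myh11, Tpm1, Tpm2 and Tpm4. They were taken by name, and the list was chosen with earlier results of these data known. All 10 were found among the 35171 gene rows shared by the bulk tables and in the single-cell matrix. The bulk libraries are of 4 kinds. Stellate cells of strain Balbc were cultured for 24 h with 10 µM UDP-glucose (3 libraries), or for 24 h without it (3 libraries), in both cases after 5 h of plating in 10% serum and a change to 0.1% serum. Quiescent stellate cells (4 libraries) were unplated and sorted for vitamin A and TdTom from uninjured livers labelled LratCre+, TdTom+ in C57BL/6J, in which the Lrat promoter drives the recombinase, and whole uninjured liver (3 libraries) carries the same strain label. The titles of the treated libraries say UDP, while their descriptions and treatment labels say UDP-glucose, the name used here. No sort is described for the cultured cells. A single-cell library was made from the digested normal liver of the C57BL/6 strain. The series addresses whether the receptor P2Y14, which UDP-glucose activates, connects the death of hepatocytes with the activation of stellate cells.

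Hepatic stellate cells are pericytes of the liver sinusoid that store vitamin A. When the liver is injured, or when they are placed on plastic, they take on features of myofibroblasts, and alpha smooth muscle actin is the classical marker of that state. In smooth muscle, force comes from myosin filaments pulling on actin filaments. Phosphorylation of the regulatory light chain switches the myosin on, and tropomyosin, calponin and transgelin lie along the actin filament. Many genes of this apparatus are controlled by serum response factor (SRF), which binds a DNA element called the CArG box together with cofactors of the myocardin family. A second element, MCAT, is bound by TEAD factors.

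The members sit on separate loci of the mouse genome (GRCm38, GENCODE vM21). The actins are Acta2, alpha smooth muscle actin, at chr19:34241090-34255590 on the minus strand, and Actg2, the gamma smooth muscle actin of gut and other viscera, at chr6:83512905-83536265 on the minus strand. The proteins that lie on actin filaments or start them are Tagln (transgelin, SM22-alpha, chr9:45929619-45936058, minus), Cnn1 (calponin 1, chr9:22099216-22109630, plus) and Lmod1 (leiomodin 1, a nucleator of actin filaments, chr1:135324807-135368065, plus). The myosin subunits are Myl9, a regulatory light chain (chr2:156775420-156781658, plus), and Myh11, the smooth muscle heavy chain (chr16:14194535-14291372, minus). The tropomyosins, coiled-coil proteins along the actin filament, are Tpm1 (chr9:67022590-67049406, minus), Tpm2 (chr4:43514711-43523765, minus) and Tpm4 (chr8:72134975-72153142, plus). Tpm1 and Tpm4 also have isoforms in cells other than muscle, and TPM per gene does not separate isoforms.

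RefSeq promoter windows on GRCm38.p6, which run from 250 bases before to 50 bases after a gene's start, were found for 7 of the 10 members (Acta2, Cnn1, Lmod1, Myl9, Tpm1, Tpm2 and Tpm4). They were searched on both strands for the CArG box, also with 1 G or C allowed in its 6-base core, and for MCAT (CATTCC or GGAATG). The stretches of 30 bases below hold every match in these windows, and are shown because the members they belong to include those that moved most in culture. They run 5′ to 3′ on the gene's strand, with the motif in capitals.
Acta2, CArG box with 1 G or C in the core, 84 bases before the start, chr19:34255438-34255467: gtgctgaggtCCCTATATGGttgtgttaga
Acta2, CArG box with 1 G or C in the core, 34 bases before the start, chr19:34255388-34255417: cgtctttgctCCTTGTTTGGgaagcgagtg
Acta2, MCAT, 146 bases before the start, chr19:34255502-34255531: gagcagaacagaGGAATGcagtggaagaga
Myl9, CArG box, 161 bases before the start, chr2:156775293-156775322: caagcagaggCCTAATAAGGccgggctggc
Myl9, CArG box with 1 G or C in the core, 99 bases before the start, chr2:156775355-156775384: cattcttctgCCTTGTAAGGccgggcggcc
Lmod1, MCAT, 130 bases before the start, chr1:135324671-135324700: ccaagattccctGGAATGtcctcaagtttc
Tpm1, MCAT, 56 bases before the start, chr9:67049252-67049281: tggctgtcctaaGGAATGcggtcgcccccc

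Acta2 and Myl9 each held a pair of CArG boxes when 1 G or C was allowed, a count of at least 2 that 0.822% of the 32851 RefSeq windows of the same length reached. At least 1 such box was found in 9.98% of windows. The box without G or C in its core, present in Myl9, was found in 1.63%, and MCAT in 14.7%. No match overlapped another. The windows of Cnn1, Tpm2 and Tpm4 held none of these letters, which says nothing of more distant sequence. The GENCODE annotation places the 3 Acta2 stretches inside the first exon of transcript Acta2-201, and the Tpm1 stretch inside an exon of Tpm1-216, while those of Myl9 and Lmod1 lie in no exon of their genes. A match is a description of the letters, and no binding was measured.

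Bulk values are TPM, which are scaled to a fixed sum in each library and per length of transcript, so levels of different genes can be compared, and their read depth is unknown. Replicates of a group had Spearman correlations of 0.935 to 0.947 across genes, and no pair of libraries held identical values. Of the 15 stellate markers checked, all reached 1 TPM in both cultured groups and in quiescent cells, and their summed level was 8724 to 10053 TPM in UDP-glucose cultures, 10840 to 11608 TPM in control cultures, 61962 to 68573 TPM in quiescent cells and 75.1 to 177 TPM in whole liver. The 12 smooth muscle markers that are not members, which include Des and Mustn1, summed to 460 to 481 TPM in UDP-glucose cultures, 360.1 to 393 TPM in control cultures, 938 to 982 TPM in quiescent cells and 3.11 to 4.62 TPM in whole liver. Among them Pln and Pcp4 were listed at 0 in every cultured library, and Myocd, Pln, Npnt and Map3k7cl in every quiescent one. Kupffer markers summed to at most 1.60 TPM in cultured libraries and 93.7 to 195 TPM in quiescent ones, and hepatocyte markers to 226 to 272 TPM and 64 to 83 TPM in the same groups. The 13 sinusoidal endothelial markers summed to 73.6 to 78.5 TPM in UDP-glucose cultures, 90.8 to 105 TPM in control cultures and 457 to 1140 TPM in quiescent cells. The part of such cells in the levels of the members was not tested.

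**Figure D1:**
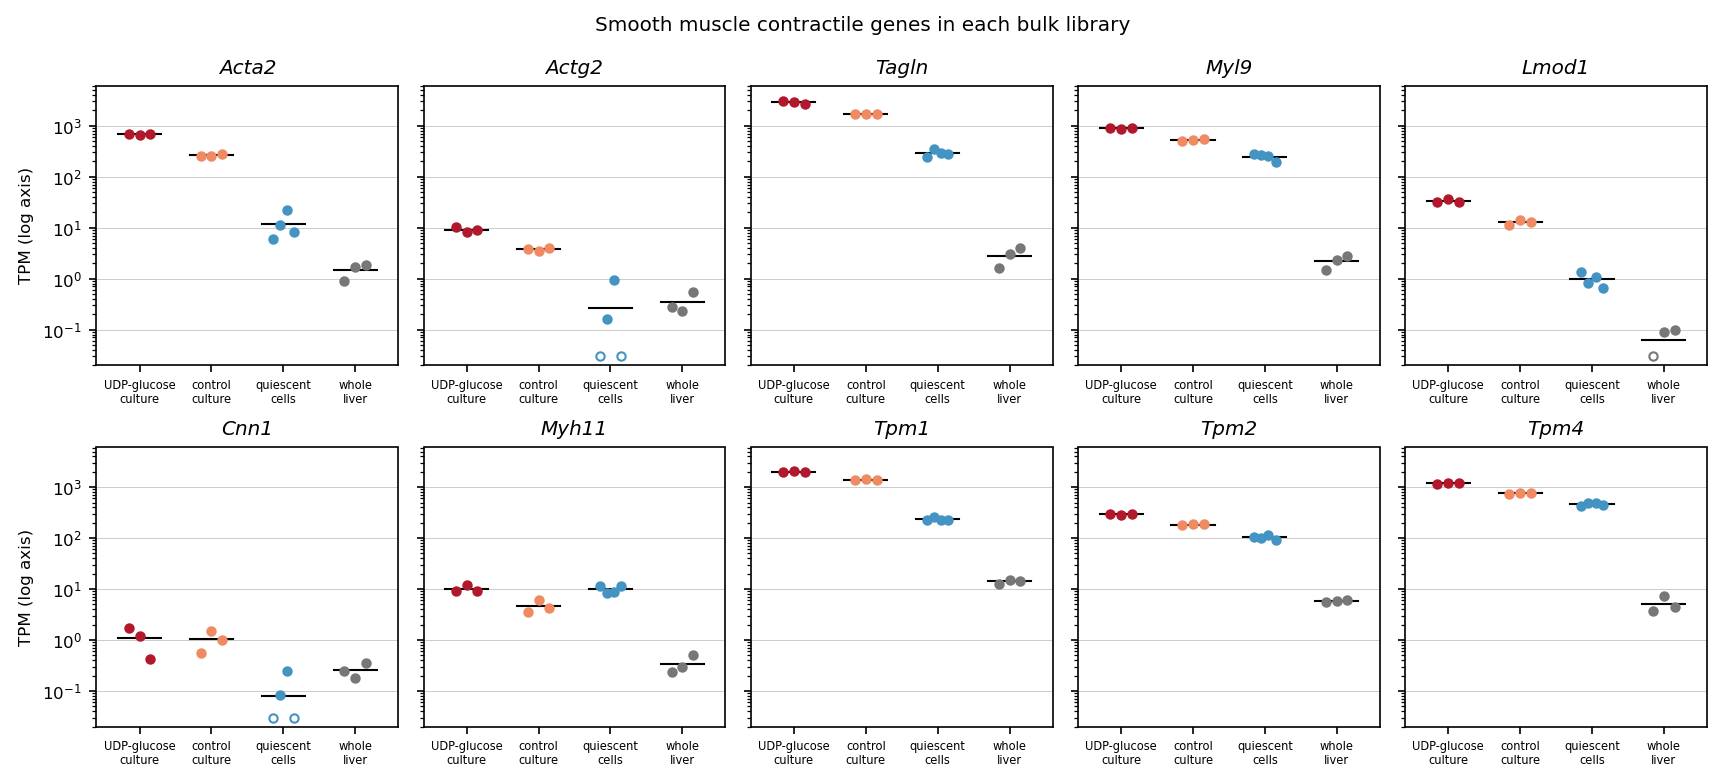
TPM of each member in each bulk library on a log axis, with the group mean as a short line and libraries listed at 0 as open circles at the foot of the axis. Acta2 stands at 646 to 699 TPM in UDP-glucose cultures, 258 to 276 TPM in control cultures, 6.11 to 22.1 TPM in quiescent cells and 0.897 to 1.88 TPM in whole liver, while Myh11 is about as high in quiescent cells as in UDP-glucose cultures.

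UDP-glucose cultures held more of the contractile transcripts than control cultures. Of the 10 members, 8 rose and none fell, with folds of the mean TPM from 1.41 for Tpm1 to 2.63 for Lmod1. Over all 12161 genes tested, 0.428% were called higher and 0.181% lower (limma on log2(TPM + 1), Benjamini-Hochberg adjusted p under 0.05), and the median log2 fold change was -0.05, against 0.77 for the 10 members. The treated and control libraries did not overlap for 9 members, as for 16.3% of all genes tested. In bulk samples, more cells of a type and more RNA per cell cannot be told apart.

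Acta2 had 695, 646 and 699 TPM in UDP-glucose cultures, against 258, 258 and 276 TPM in control cultures. Every treated library lay above every control library, by more than the range within either group. The log2 fold change was 1.36 (SE 0.06, limma adjusted p = 0.000154), which placed Acta2 34th of all genes tested. Actg2 was far less abundant, at 10.3, 8.30 and 8.94 TPM in UDP-glucose cultures and 3.76, 3.54 and 4.04 TPM in control cultures. Its groups did not overlap either, though the gap between them was smaller against the range within them, and its log2 fold change was 1.09 (SE 0.13, limma adjusted p = 0.0217). Both smooth muscle actins thus rose, by 2.58-fold and 2.43-fold in mean TPM.

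Of the genes whose products lie on actin filaments, Tagln was the most abundant member in culture. It had 2996, 2936 and 2712 TPM in UDP-glucose cultures, against 1666, 1669 and 1659 TPM in control cultures. The control libraries were nearly equal, and every treated library lay well above them (log2 fold change 0.79, SE 0.06, limma adjusted p = 0.00183). Of the exon bases of Tagln, 67.9% also lie in exons of Gm48529 and Pcsk7, so its value is uncertain where reads could be split between them. Gm48529 had no listed bulk value, so only Pcsk7 could be set beside Tagln. No source here states whether reads were assigned by strand. Pcsk7 had 19.2 to 22.5 TPM in UDP-glucose cultures and 19.8 to 24.1 TPM in control cultures. Lmod1 had 32.5, 37.2 and 31.7 TPM in UDP-glucose cultures and 11.3, 14.0 and 13.2 TPM in control cultures. Its fold of 2.63 was the largest of the members, and its log2 fold change was 1.33 (SE 0.11, limma adjusted p = 0.00365). Cnn1 had 1.72, 1.18 and 0.426 TPM in UDP-glucose cultures and 0.553, 1.54 and 1.002 TPM in control cultures. These groups overlapped, and the log2 fold change of 0.03 had a 95% interval from -0.68 to 0.75, so a difference of up to that size was not detectable.

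Of the myosin subunits, Myl9 had 883, 875 and 913 TPM in UDP-glucose cultures, against 510.2, 528 and 539 TPM in control cultures. The groups were far apart compared with the range within either, by 0.76 on the log2 scale (SE 0.05, limma adjusted p = 0.00136). Myh11 had 9.02, 11.9 and 9.31 TPM in UDP-glucose cultures and 3.50, 6.22 and 4.205 TPM in control cultures. The lowest treated library lay above the highest control one, but the log2 fold change of 0.99 (SE 0.20) did not pass the test (limma adjusted p = 0.118).

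The tropomyosins moved by smaller factors from high levels. Tpm1 had 1942, 2030.2 and 1950.3 TPM in UDP-glucose cultures, against 1361, 1438 and 1401 TPM in control cultures (log2 fold change 0.50, SE 0.05, limma adjusted p = 0.00993). Tpm4 had 1137, 1196 and 1209 TPM in UDP-glucose cultures and 735, 772 and 759.7 TPM in control cultures (log2 fold change 0.64, SE 0.05, limma adjusted p = 0.00337). Tpm2 had 299, 286 and 304 TPM in UDP-glucose cultures and 178, 191 and 186 TPM in control cultures (log2 fold change 0.68, SE 0.06, limma adjusted p = 0.00337). No pair of these groups overlapped. The fourth tropomyosin gene, Tpm3, which is no member, had 156 ± 36.5 TPM in UDP-glucose cultures and 175 ± 18.8 TPM in control cultures (SD, n = 3 each) and was not called (limma adjusted p = 0.767).

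All 10 members together made up 0.796% ± 0.010 of all TPM in UDP-glucose cultures and 0.482% ± 0.008 in control cultures (SD, n = 3 each). Without a filter on low values, Actg2 (adjusted p = 0.0846) and Tpm1 (0.068) lost their call. When all 4 bulk groups shared 1 estimate of the spread, 3 members (Lmod1, Tpm1 and Tpm2) were called, with Acta2 at an adjusted p of 0.115; over all genes that fit called 20 higher and 3 lower. The call of Actg2 was lost without any 1 of 5 libraries (all but replicate 2 of the control cultures), at adjusted p from 0.0704 to 0.118, and that of Tpm1 without any 1 of 4 (UDP-glucose replicates 2 and 3, control replicates 1 and 3), at 0.0536 to 0.0953. Myh11 was called without control replicate 2 (limma adjusted p = 0.0405) and after quantile normalisation (0.0213).

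**Figure D2:**
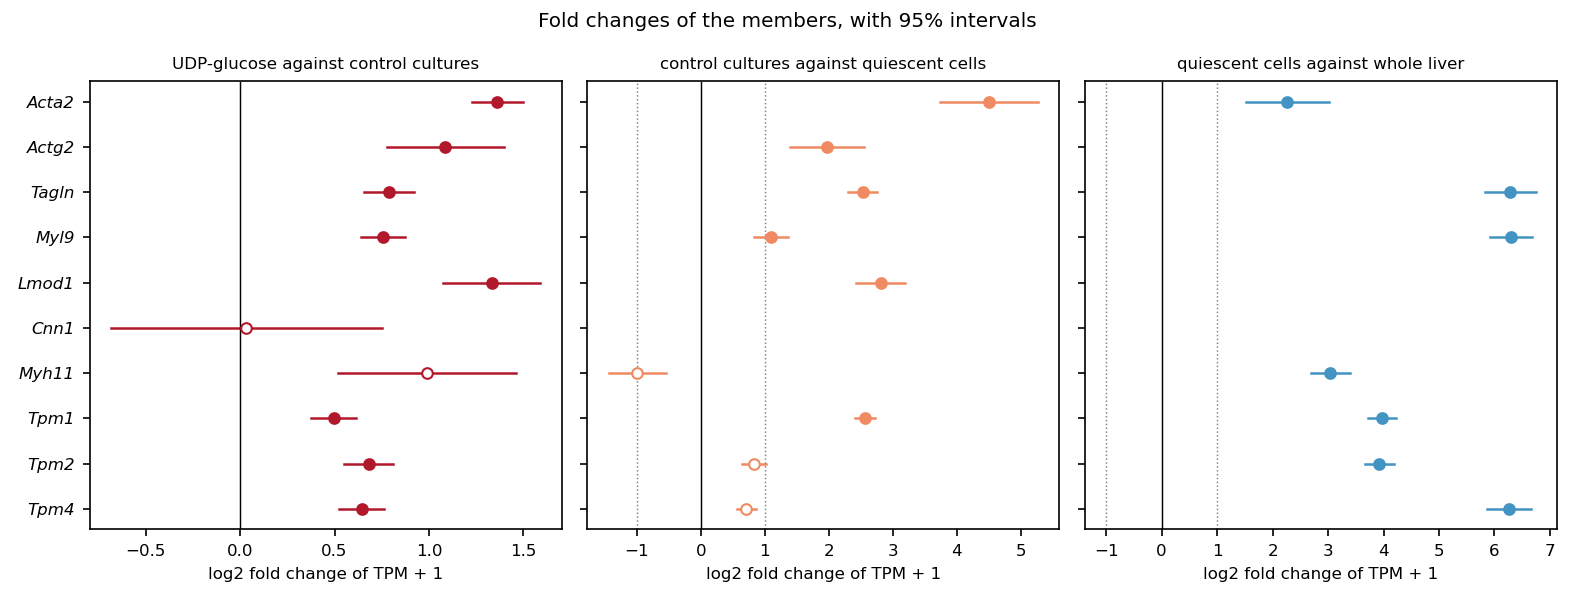
Log2 fold change of TPM + 1 of each member with its 95% interval in the 3 comparisons, on separate axes; filled points were called, open points were not, and dotted lines mark the minimum fold of 1 required in the comparisons across tables. Members not shown in a panel had a mean under 1 TPM there. In the panel of UDP-glucose against control cultures, Acta2 and Lmod1 lie farthest to the right, at 1.36 and 1.33, and Cnn1 lies at 0.03.

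A share within a gene family is unaffected by how a library is scaled. Acta2 made up 8.33% ± 0.293 of the summed TPM of 6 actins in UDP-glucose cultures and 4.56% ± 0.175 in control cultures (SD, n = 3 each), the rest being almost wholly the cytoplasmic actins Actb and Actg1. Tagln made up 76.6% of the transgelins in UDP-glucose cultures and 70.7% in control cultures, and Myl9 made up 36.4% and 28.6% of the regulatory light chains in the same groups. Myh11 was 1.93% of the myosin heavy chains Myh9, Myh10, Myh11 and Myh14 in UDP-glucose cultures and 1.06% in control cultures. Within the tropomyosins the shift was slight, with Tpm1 at 54.7% in UDP-glucose cultures and 55.7% in control cultures, Tpm2 at 8.23% and 7.35%, and Tpm4 at 32.7% and 30.05%. In each of these the libraries of the groups did not overlap. The exact two-sided permutation test gave p = 0.1, which is the smallest that 3 libraries against 3 allow (0.117 adjusted over 27 shares and comparisons).

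Among other genes of the contractile apparatus, all called changes were also rises. Of 73 listed, 69 were in the tables, 52 were tested, 7 rose and none fell. At an unadjusted limma p under 0.05, 26 were higher and none lower, as were 3.42% and 6.61% of all genes tested, and the median log2 fold change over the 52 was 0.30. The called genes were the cytoplasmic actins Actb and Actg1, the calponins Cnn2 and Cnn3, the intermediate filament gene Des, the LIM-domain gene Csrp1, and Ppp1r14a, whose product inhibits myosin phosphatase. Ppp1r14a had 260.4 ± 18.2 TPM in UDP-glucose cultures and 177 ± 11.6 TPM in control cultures (SD, n = 3 each; log2 fold change 0.56, limma adjusted p = 0.0269). Cnn3 (log2 fold change 0.48), of whose exon bases 17.7% lie in Gm42928, Actb (0.47) and Cnn2 (0.44) followed, and the rises of Csrp1 (0.39), Des (0.38) and Actg1 (0.37) were the smallest. Mylk, the kinase of the regulatory light chain, had 175 ± 15.2 TPM in UDP-glucose cultures and 129 ± 15.6 TPM in control cultures (SD, n = 3 each) and was not called (limma adjusted p = 0.167). Srf had 63.5 ± 2.18 TPM in UDP-glucose cultures and 46.0 ± 2.93 TPM in control cultures (SD, n = 3 each; limma adjusted p = 0.0533), its cofactors Mrtfa and Mrtfb averaged 21.6 and 7.90 TPM in UDP-glucose cultures, against 18.1 and 7.80 TPM in control cultures, and were not called, and Myocd stayed at or below 0.123 TPM in every library. The count of 7 was 6 without control replicate 2. It was 1 without UDP-glucose replicate 1 and 0 by limma without UDP-glucose replicate 2 or 3 or control replicate 1 or 3, where 23 to 25 of the genes were higher at an unadjusted p under 0.05.

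**Figure D3:**
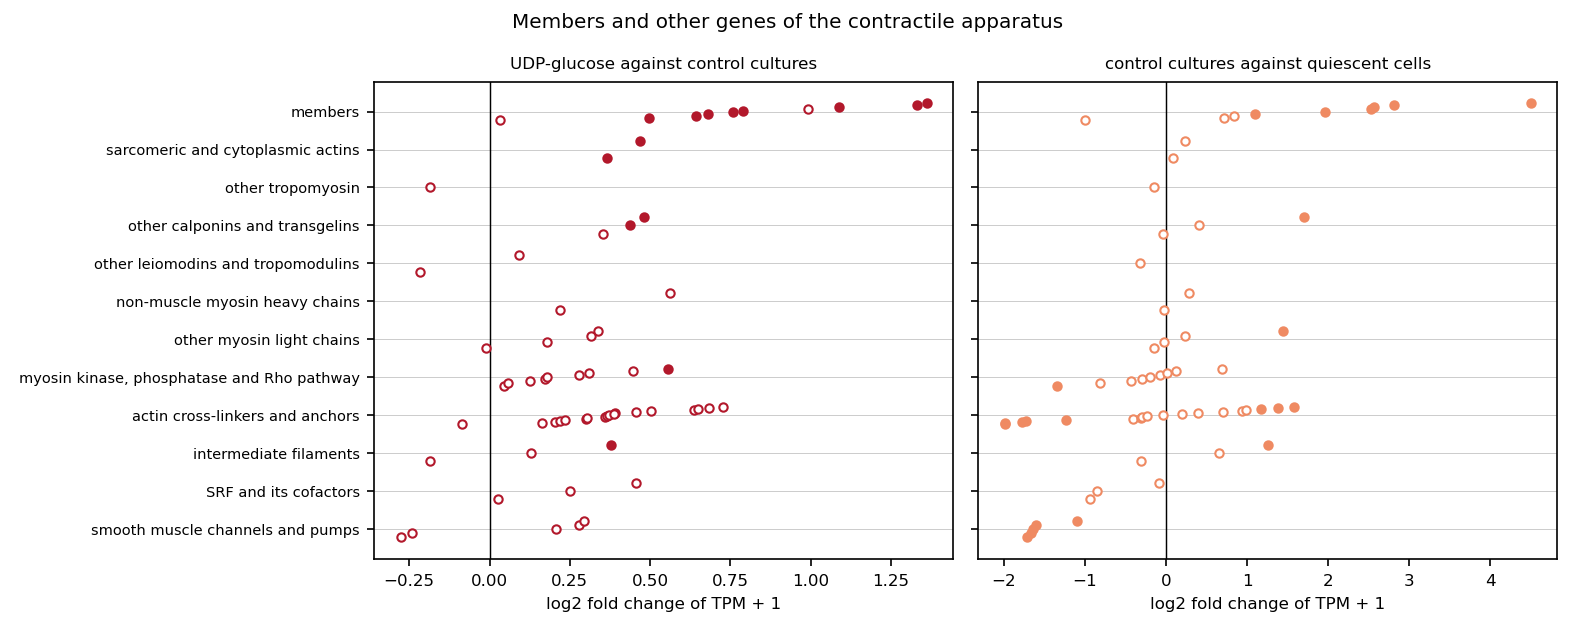
Log2 fold change of TPM + 1 of the members and of other genes of the contractile apparatus, 1 point per gene, for UDP-glucose against control cultures and for control cultures against quiescent cells; filled points were called. Among the members, 8 filled points lie above 0 in UDP-glucose cultures, and the 5 channel, cyclase and kinase genes at the foot of the panel of control cultures against quiescent cells are all filled and below 0.

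Control cultures were also compared with quiescent, unplated cells. Here the deposited table, the strain, the sort and the culture differ between the groups and cannot be told apart, and a log2 fold change of at least 1 was required beside the adjusted p. Of the 9 members with a mean of at least 1 TPM, 6 rose and none fell. Actg2 and Lmod1, both among those that rose, averaged 0.270 and 0.984 TPM in quiescent cells and passed that filter only through the cultures. Without a filter, 6 of all 10 members were called higher. Over 12537 genes, 18.6% were called higher and 13.2% lower, and the median log2 fold change was 0.26, against 1.97 for the 9 members. The groups did not overlap for any of the 9, as for 70.0% of all genes. Median-of-ratios rescaling moved the median of all genes to 0.02 and turned the balance of calls, with 1547 genes higher and 2029 lower against 2338 and 1652 without it; 5 members were then called higher and 1 lower.

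Acta2 showed the widest gap of all members. Control cultures had 258, 258 and 276 TPM, against 6.11, 11.4, 22.1 and 8.22 TPM in quiescent cells, a 22.1-fold difference of the means (log2 fold change 4.50, SE 0.34, limma adjusted p = 3.43e-06). Quiescent replicate 3 held the most Acta2 of the 4 quiescent libraries. That library also had the most Actg2 (0.921 TPM), Cnn1 (0.243 TPM), Tpm2 (113 TPM) and Tpm4 (489.5 TPM). Tagln, Myl9, Lmod1, Myh11 and Tpm1 were each higher in at least 1 other quiescent library. Its sum of 11 portal fibroblast markers was the highest, 112 TPM against 80.5 to 92.1 TPM in the other quiescent libraries. Its sum of the 12 smooth muscle markers that are not members was the lowest, at 938 TPM against up to 982 TPM. The part of portal fibroblasts in its Acta2 was not tested. Actg2 had 3.76, 3.54 and 4.04 TPM in control cultures and was listed at 0, 0.159, 0.921 and 0 TPM in quiescent cells (log2 fold change 1.97, limma adjusted p = 0.00011).

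Of the genes whose products act on actin filaments, Lmod1 and Tagln rose. Lmod1 had 11.3, 14.0 and 13.2 TPM in control cultures and 1.38, 0.837, 1.08 and 0.645 TPM in quiescent cells (log2 fold change 2.81, limma adjusted p = 8.41e-07). Tagln was already abundant before culture, with 1666, 1669 and 1659 TPM in control cultures and 248, 343, 285 and 283 TPM in quiescent cells (log2 fold change 2.53, limma adjusted p = 7.88e-08). Pcsk7, which shares exon bases with Tagln, had 13.1 to 17.6 TPM in quiescent cells. Cnn1 had 0.553, 1.54 and 1.002 TPM in control cultures and 0, 0.0831, 0.243 and 0 TPM in quiescent cells, and was too low to be tested.

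Tpm1 was the tropomyosin that rose. It had 1361, 1438 and 1401 TPM in control cultures and 225, 262, 229.6 and 226 TPM in quiescent cells (log2 fold change 2.57, limma adjusted p = 1.06e-08). Tpm2 had 178, 191 and 186 TPM in control cultures and 106, 102, 113 and 91.0 TPM in quiescent cells, and Tpm4 had 735, 772 and 759.7 TPM in control cultures and 432, 483, 489.5 and 441 TPM in quiescent cells. Their log2 fold changes of 0.84 and 0.71 stayed under the required fold, at limma adjusted p of 1.75e-05 and 1.18e-05.

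The myosin subunits had fold changes of opposite sign. Myl9 had 510.2, 528 and 539 TPM in control cultures, against 278, 259.9, 259 and 192 TPM in quiescent cells. Its log2 fold change of 1.10 (limma adjusted p = 3.57e-05) was near the required fold and fell to 0.98 without quiescent replicate 4 and to 0.83 after median-of-ratios rescaling, which ended the call. Myh11 had 3.50, 6.22 and 4.205 TPM in control cultures, against 11.7, 8.21, 8.88 and 11.7 TPM in quiescent cells. It was the one member that was lower in culture in every library, at -0.99 on the log2 scale (SE 0.20, limma adjusted p = 0.00155), which missed the required fold. It passed that fold with a pseudocount of 0.1 TPM (-1.13), after median-of-ratios rescaling (-1.22) and quantile normalisation (-1.06), and without control replicate 2 (-1.19), quiescent replicate 2 (-1.08) or quiescent replicate 3 (-1.04). Myh11 in UDP-glucose cultures, at 9.02 to 11.9 TPM, overlapped with the quiescent cells.

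Shares within families differed as well. Acta2 made up 4.56% ± 0.175 of actin TPM in control cultures (SD, n = 3) and 0.240% ± 0.139 in quiescent cells (SD, n = 4), Tagln 70.7% and 35.7% of the transgelins, and Myl9 28.6% and 17.0% of the regulatory light chains. Tpm1 was 55.7% of tropomyosin TPM in control cultures and 23.7% in quiescent cells, and Tpm4 was 30.05% and 46.4%, so that the leading tropomyosin gene was Tpm1 in culture and Tpm4 in quiescent cells. Myh11 was 1.06% of the heavy chains in control cultures and 2.35% in quiescent cells. None of these groups overlapped, and each exact two-sided permutation test gave p = 0.0571, the smallest that 3 libraries against 4 allow (0.103 adjusted over 27).

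**Figure D4:**
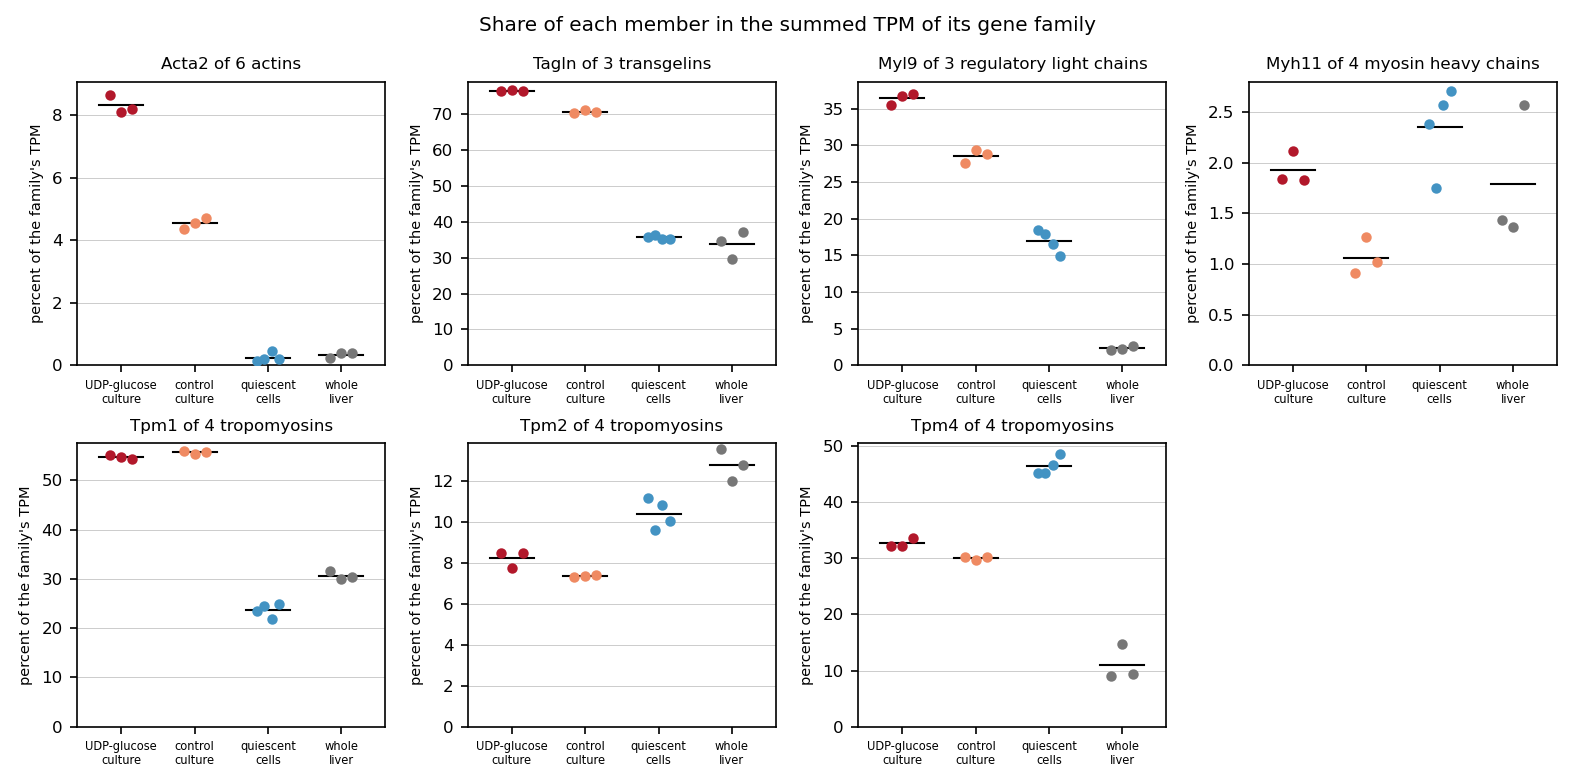
Percent of the summed TPM of its gene family that each of 7 members held in each bulk library, with group means as short lines and every axis starting at 0. Acta2 is at 8.11% to 8.66% of actins in UDP-glucose cultures, 4.38% to 4.73% in control cultures and at most 0.446% in quiescent cells, and Tpm1 and Tpm4 exchange the first place among tropomyosins between cultures and quiescent cells.

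The other genes of the apparatus went both ways in this comparison. Of 51 tested, 6 rose and 11 fell, where 18.6% of all genes tested were called higher and 13.2% lower. The median log2 fold change was -0.08 over the 51 and 0.26 over all genes. Those with the largest rises were Cnn2 (log2 fold change 1.71), Pdlim7 (1.59), the essential myosin light chain Myl6 (1.44) and the actin cross-linker filamin A, Flna (1.38). Those with the largest falls were Mustn1 (-1.99), the smoothelin gene Smtn (-1.98, with 16.3% of its exon bases in Gm11946 and Gm11947), Csrp2 (-1.78) and Synpo2 (-1.73). Smtn, known from contractile smooth muscle, had 73.8 ± 11.1 TPM in control cultures (SD, n = 3) and 294 ± 30.9 TPM in quiescent cells (SD, n = 4; limma adjusted p = 7.05e-07). All 5 tested genes of the list of channels and pumps fell: the guanylate cyclase subunits Gucy1a1 (-1.64) and Gucy1b1 (-1.71), which sense nitric oxide, the cyclic GMP-dependent kinase Prkg1 (-1.66), its partner Mrvi1 (-1.10) and the calcium release channel Itpr1 (-1.60). That list was singled out after its values were seen. Actb had 3684 ± 88.2 TPM in control cultures (SD, n = 3) and 3183 ± 652 TPM in quiescent cells (SD, n = 4), and Actg1 1844 ± 30.2 and 1755 ± 277 TPM; neither was called. Des (log2 fold change -0.30), Mylk (-0.82), Srf (-0.85), Mrtfb (-0.94) and Mrtfa (-0.08) did not reach the required fold.

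Quiescent cells were also set against whole liver, which compares levels of the contractile genes in the sorted cells before culture with those in the tissue. These groups also stand in separate tables, and most genes differ, since 67% of 12643 genes were called higher and 10.9% lower in quiescent cells; the median log2 fold change was 1.62 over all genes and 3.97 over the 7 members tested. All 7 were called higher, a share that has to be read against that background. Of these, Myh11 averaged 0.346 TPM in liver and passed the filter only through the quiescent cells. Without a filter, 7 of all 10 members were called higher. At an unadjusted limma p under 0.05, 8 were then higher and 1 lower. Median-of-ratios rescaling moved the median of all genes to 0.04, with 3373 genes higher and 3299 lower, and left 6 of the 7 members called.

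Tagln, Myl9 and Tpm4 had the largest fold changes of the members. Tagln had 248, 343, 285 and 283 TPM in quiescent cells and 1.58, 2.98 and 3.92 TPM in whole liver (log2 fold change 6.29, limma adjusted p = 1.63e-10); in liver Pcsk7, with which it shares exon bases, was higher than Tagln, at 6.77 to 9.49 TPM. Myl9 had 278, 259.9, 259 and 192 TPM in quiescent cells and 1.48, 2.30 and 2.72 TPM in whole liver (log2 fold change 6.30). Tpm4 had 432 to 489.5 TPM in quiescent cells and 3.66, 7.32 and 4.56 TPM in whole liver (log2 fold change 6.27).

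The remaining members were closer to liver. Tpm1 had 225 to 262 TPM in quiescent cells and 12.8, 14.9 and 14.6 TPM in whole liver (log2 fold change 3.97), and Tpm2 had 91.0 to 113 TPM in quiescent cells and 5.48, 5.96 and 6.14 TPM in whole liver (log2 fold change 3.92). Myh11 had 8.21 to 11.7 TPM in quiescent cells and 0.236, 0.298 and 0.505 TPM in whole liver (log2 fold change 3.04). Acta2 had 6.11, 11.4, 22.1 and 8.22 TPM in quiescent cells and 0.897, 1.66 and 1.88 TPM in whole liver, with a log2 fold change of 2.26 (limma adjusted p = 6.01e-05) that ranks 4054th of 12643 and that fell to 0.80 after median-of-ratios rescaling and 0.63 after quantile normalisation, both under the required fold. Actg2, Lmod1 and Cnn1 had a mean under 1 TPM over these libraries and were not tested; Actg2 was at most 0.921 TPM in quiescent cells and 0.534 TPM in liver.

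Among actins, Acta2 made up 0.240% ± 0.139 in quiescent cells (SD, n = 4) and 0.341% ± 0.088 in whole liver (SD, n = 3), and these overlapped (exact two-sided permutation p = 0.343). Tpm4 was 46.4% of the tropomyosins in quiescent cells and 11.1% in liver, and Myl9 17.0% and 2.33% of the regulatory light chains (exact permutation p = 0.0571 for each, the smallest possible). Shares lower in quiescent cells than in liver, at the same p, were those of Tpm1 (23.7% and 30.7%) and Tpm2 (10.4% and 12.8%). So were those of Actg2 (0.00529% and 0.0797%) and Cnn1 (0.0122% and 0.550%). Adjusted over 27, each p was 0.103. The shares of Myh11 and Tagln overlapped. Of 52 other genes of the apparatus tested, 50 rose and 1 fell, against 67% and 10.9% of all genes. Several of them averaged under 1 TPM in liver and passed the filter only through the quiescent cells, among them Gucy1b1 (0.690 TPM in liver), Gucy1a1 (0.715 TPM) and Des (0.943 TPM). Without a filter, 53 of 69 were called higher and 1 lower, where 8634 of all 21484 genes were called higher and 1473 lower. With median-of-ratios rescaling, 44 of the 52 were called higher and 1 lower. The largest rises were those of Gucy1b1 (log2 fold change 8.11), Gucy1a1 (7.77), Mustn1 (7.69) and Csrp1 (7.35), and the fall was that of the heavy chain Myh14 (-2.27). Des (6.93), Srf (4.73), Mylk (4.23), Actg1 (3.57), Actb (3.50), Mrtfa (2.99) and Mrtfb (2.27) were all among those that rose.

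The order of the members differed between groups. In UDP-glucose and in control cultures alike it ran Tagln, Tpm1, Tpm4, Myl9, Acta2, Tpm2, Lmod1, Myh11, Actg2 and Cnn1, and only Myh11 and Actg2 overlapped with their neighbour in that order. In quiescent cells it ran Tpm4, Tagln, Myl9, Tpm1, Tpm2, Acta2, Myh11, Lmod1, Actg2 and Cnn1, where Tagln, Myl9 and Tpm1 overlapped in turn, as did Acta2 and Myh11, and the last 3. In whole liver it ran Tpm1, Tpm2, Tpm4, Tagln, Myl9, Acta2, Actg2, Myh11, Cnn1 and Lmod1, at mean levels of 14.1 to 0.063 TPM, and the ranges from Tpm2 to Acta2 overlapped in turn, as did those of Actg2, Myh11 and Cnn1. The members' share of all TPM was 0.136% ± 0.010 in quiescent cells (SD, n = 4) and 0.00326% ± 0.00052 in whole liver (SD, n = 3).

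Over the 13 bulk libraries, with each gene's log2(TPM + 1) centred on its mean, the genes outside the members whose pattern lay nearest to that of Acta2 were Slc7a5 (an amino acid transporter; root mean square difference 0.66), Psat1 (an enzyme of serine synthesis; 0.69), Myof (0.71), Fosl1 (a subunit of the AP-1 transcription factor; 0.75) and Hmox1 (heme oxygenase 1; 0.80), out of 9894 candidates. In the cultures, Slc7a5 averaged 109 TPM in UDP-glucose cultures and 108 TPM in control cultures, and Hmox1 averaged 1623 TPM in UDP-glucose cultures and 1942 TPM in control cultures. The nearest member to Acta2 was Tpm1, at 1.12. The closest pair of members was Myl9 and Tpm4, at 0.30, followed by Tagln with Myl9 (0.74), Tpm1 with Tpm2 (0.83) and Actg2 with Lmod1 (0.84); Cnn1 lay nearest to Actg2 (0.94) and Myh11 nearest to Tpm2 (1.10). These values describe 13 libraries in 4 groups and carry no test.

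In the single-cell library, 4807 of 5063 barcodes passed the filters (at least 500 UMIs and 200 genes, at most 20% mitochondrial UMIs) and fell into 22 clusters. A group of 369 cells (clusters 0 and 10, 340 and 29 cells) was called stellate-like from its markers, with a median of 3097 UMIs per cell. Cluster 10 held only 3 stellate markers among its 50 leading genes, against 10 in cluster 0, and was no longer in the class at Leiden resolution 2. There was 1 library, so no test between cell classes was made, and the 95% intervals cover counting error only. Genes of the cells took part in the clustering, but leaving the 10 members out of it changed no member's level beyond its interval. The doublet caller marked 1 barcode (0.0208%), too few to have worked, so doublets remain among the cells.

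Stellate-like cells held most of the Myl9, Tagln and Tpm2 UMIs of the library. Myl9 stood at 156 CPM of the class's UMIs (190 UMIs, exact Poisson interval 135 to 180.1), against 1.72 CPM in 2177 sinusoidal endothelial-like cells. Tagln stood at 119 CPM in stellate-like cells (145 UMIs, interval 101 to 140.3) and 3.19 CPM in sinusoidal endothelial-like cells, and Tpm2 at 69.9 CPM (85 UMIs, interval 55.8 to 86.4) and 1.96 CPM. Of all UMIs in the kept cells, 84.8% of Myl9, 80.1% of Tagln and 79.4% of Tpm2 fell in the 369 stellate-like cells. Nearly all of these were in cluster 0, where Myl9 stood at 167 CPM, Tagln at 128 CPM and Tpm2 at 75.4 CPM. The 29 cells of cluster 10 had 2 UMIs of Myl9 (22.4 CPM, interval 2.71 to 80.7), 1 of Tagln (11.2 CPM, interval 0.283 to 62.3) and none of Tpm2.

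Tpm1 and Tpm4 were not of that kind. Tpm1 was at 113 CPM in stellate-like cells (interval 94.6 to 133) and 94.2 CPM in sinusoidal endothelial-like cells (interval 85.0 to 104), and Tpm4 at 268 CPM (interval 240 to 299) and 346 CPM (interval 328 to 365). Of their UMIs, 18.1% of Tpm1 and 12.8% of Tpm4 came from stellate-like cells. Tpm4 was also at 85.4 CPM in Kupffer-like cells and 30.9 CPM in hepatocyte-like cells.

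Acta2, Actg2, Lmod1 and Cnn1 were at or near 0 in stellate-like cells of the normal liver. Acta2 had 1 UMI in 369 cells (0.822 CPM, exact Poisson interval 0.0208 to 4.58), against 0.491 CPM in sinusoidal endothelial-like cells (2 UMIs, interval 0.0594 to 1.77) and 0.703 CPM in hepatocyte-like cells (1 UMI, interval 0.0178 to 3.92). These intervals overlap, so no difference was detectable at this depth. Actg2, Lmod1 and Cnn1 had none, which allows a share of cells with a UMI of up to 0.813%. Lmod1 and Cnn1 had no UMI in any of the 4807 cells, and Actg2 had 2. Myh11 had 12 UMIs in all, 8 of them in stellate-like cells (6.58 CPM, interval 2.84 to 13.0), against 2 in the 2177 sinusoidal endothelial-like cells (0.491 CPM). The other 2 lay in 357 T cell-like cells (2.09 CPM, interval 0.253 to 7.54), whose interval overlaps that of stellate-like cells.

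Of the 19 Acta2 UMIs in kept cells, 14 lay in 4 cells of cluster 19, a group of 60 cells without a name whose leading genes include Spp1, Igfbp6, Gsn, Clu, Upk3b and Krt19, and which held 5 mesothelial and 4 portal fibroblast markers among its 50 leading genes. There Acta2 stood at 77.7 CPM (interval 42.5 to 130.4), but 10 of the 14 UMIs came from 1 cell. That cell also had 6 UMIs of Tpm1 and 1 each of Tagln, Myl9 and Tpm2. Tagln (22.2 CPM, 4 UMIs) and Myl9 (11.1 CPM, 2 UMIs) were lower in cluster 19 than in stellate-like cells, while Myh11, Actg2, Lmod1 and Cnn1 had no UMI. With at most 10% mitochondrial UMIs allowed, the stellate-like class held 379 cells and 13 Acta2 UMIs (10.2 CPM), the only member and setting to leave its interval. Of the 19 Acta2 UMIs, 13 cannot be reached without the cell that held 10, so the class had taken in that cell.

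Per cell, the members were sparse. A UMI of Tpm4 was seen in 53.7% of stellate-like cells (198 of 369), of Myl9 in 32.5%, of Tpm1 in 30.6%, of Tagln in 21.7% and of Tpm2 in 18.2%, at a median of 3097 UMIs per cell. Sinusoidal endothelial-like cells, at a median of 1805 UMIs, had a Myl9 UMI in 0.322% of cells and a Tagln UMI in 0.459%. After thinning every cell to 1000 UMIs, Myl9 was seen in 16.6% of 367 stellate-like cells (exact interval 13.0 to 20.8) against 0.140% of 2146 thinned cells of the sinusoidal class, Tagln in 9.81% and 0.326%, and Tpm4 in 23.7% and 27.5%. Of the 5 members Tagln, Myl9, Tpm1, Tpm2 and Tpm4, 71 stellate-like cells (19.2%) had none, 123 had 1, 102 had 2 and 7 had all 5. Myl9 and Tagln were seen together in 44 cells, Myl9 without Tagln in 76 and Tagln without Myl9 in 36.

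**Figure D5:**
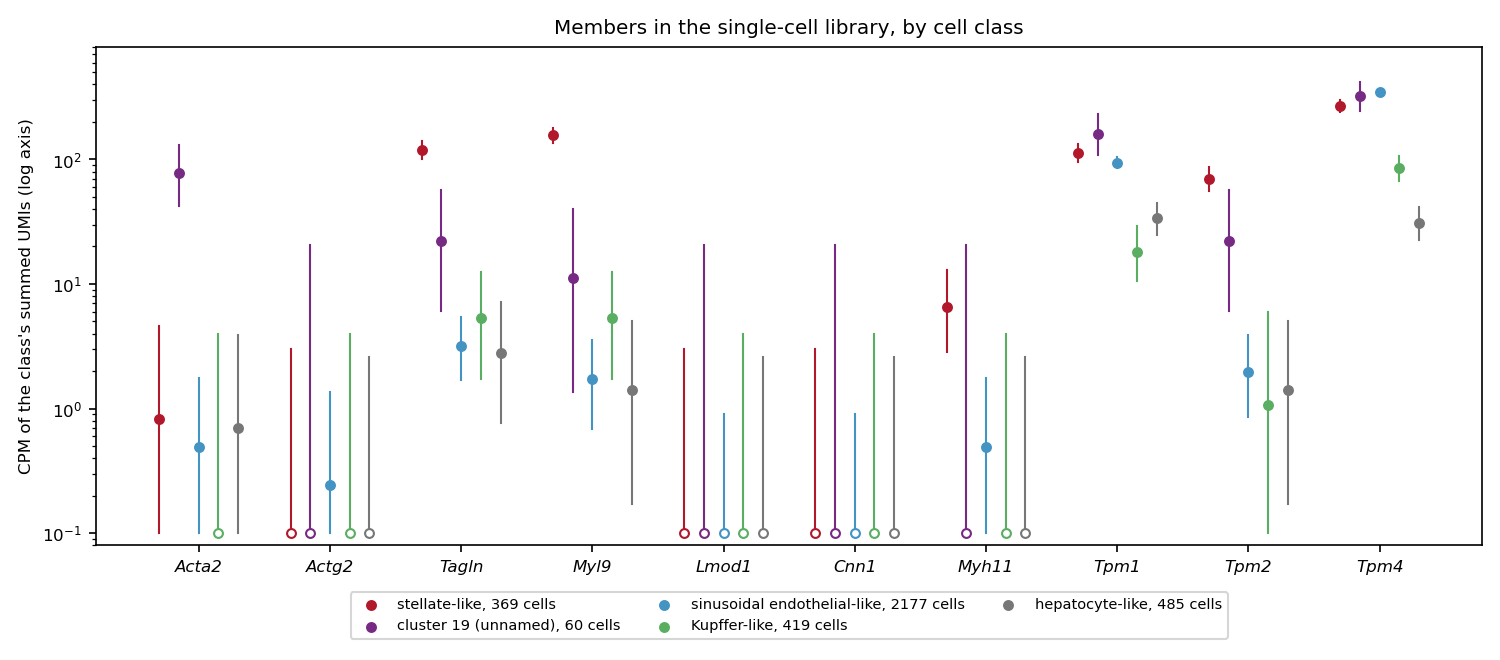
CPM of each member in the summed UMIs of 5 groups of cells of the single-cell library, on a log axis, with exact 95% Poisson intervals that cover counting error only; open circles at the foot of the axis are groups without a UMI, and intervals are cut there. Tagln, Myl9 and Tpm2 are higher in stellate-like cells than in the other 4 groups plotted, and Acta2 is highest in cluster 19, where 1 cell holds 10 of its 14 UMIs.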

How the data were processed

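Bulk RNA-seq of 13 libraries and single-cell RNA-seq of 1 library were used. The deposited bulk values are TPM per gene, in 3 tables that by their names come from kallisto; the submitters' processing notes name kallisto 0.44.0, bcl2fastq 2.19 and Cell Ranger, and the builds GRCm38 and mm10. For single cells the authors deposited UMI counts, all of them whole numbers, with a median of 1983 per barcode. TPM keeps no depth, so no count model was fitted and no counting interval is given for bulk values. Every bulk file also held 26 rows named by dates, which were dropped and took up to 0.319% of TPM.

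limma 3.58.1 in R 4.3.3 was fitted on log2(TPM + 1) with a variance trend, keeping genes that averaged 1 TPM or more over both groups. P-values are two-sided and Benjamini-Hochberg adjusted across every gene kept, with a threshold of 0.05; between tables, a change of 1 or more on the log2 scale was needed too. Fold changes on the log2(TPM + 1) scale understate the change of low genes. Whether replicate libraries stem from different animals is not in the labels; the p-values therefore reflect the spread between these samples alone, which may be technical. The fit was tested on simulated data, with genes of at least 5 TPM and changes larger than any member's in UDP-glucose against control cultures. It was not tested on smaller changes or lower genes.

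Single cells were clustered with scanpy 1.11.5 (2000 variable genes, 30 components, 15 neighbours, Leiden resolution 1). Naming a cluster took 3 or more markers of a type among its 50 leading genes and 2 times the number of any other type, not fewer than another type among its 10 leading genes, and a highest-ranked marker of its own; this scoring was chosen with the clusters known.

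All members were named in every comparison. Of the other genes of the apparatus, the 4 called with the largest rise and fall at a mean of at least 5 TPM were named, with Srf, its cofactors, Mylk, Des, Actb and Actg1; Tpm3, Csrp1 and the genes of the list of channels and pumps were added after their values were seen. Members and lists were chosen with earlier results of these data known. Exon overlaps and 31-base words shared between transcripts were taken from GENCODE vM21: 62.2% of those of Tagln and 20.0% of those of Tpm4 occur in another gene, most often the pseudogene Gm7809 for Tpm4, which had at most 2.93 TPM, and at most 1.39% for the other members. For Tagln, 58.2% of the words occur in Gm48529, which had no listed TPM.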

Additional observations from a re-analysis of the deposited data

Results flagged for a closer look

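In groups of 4 libraries, a value was singled out where the gap between the highest or lowest library and its neighbour exceeded the 95% critical value of Dixon's test. Of 27 quantities checked in quiescent cells, 3 did so, and chance flags about 1 in 20. Acta2 made up 0.446% of the actins in quiescent replicate 3 and 0.144% to 0.188% in the other 3 libraries, a gap of 0.855 of the range. Actg2 made up 0.0186% of the actins in the same library and at most 0.00256% in the others, a gap of 0.863 of the range. Tpm1 had 262 TPM in quiescent replicate 2 and 225 to 229.6 TPM in the other 3, a gap of 0.890 of the range. Quiescent replicate 2 also had the highest sum of 13 sinusoidal endothelial markers, 1140 TPM against 457 to 709 TPM in the other quiescent libraries. The part of other cells in quiescent replicates 2 and 3 was not tested.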

How the results depend on the processing

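No paired analysis was possible because the groups compared share no replicate numbers in the labels. Members called higher in UDP-glucose against control cultures numbered 8. They numbered 6 without a filter, 9 after quantile normalisation and 3 with all 4 bulk groups in one fit. Without 1 replicate they numbered 6 to 9. The other genes of the apparatus called higher there numbered 7, and 2 without a filter, 13 at a mean of at least 5 TPM and 1 with all 4 groups in one fit; without 1 replicate they numbered 0 to 6. Over all genes, the calls of 52 higher and 22 lower became 24 and 6 without a filter, 20 and 3 with all 4 groups in one fit, and 63 and 10 after median-of-ratios rescaling. In control cultures against quiescent cells, no member was called lower, and 1 (Myh11) was with a pseudocount of 0.1 TPM, after median-of-ratios rescaling, after quantile normalisation and with no minimum fold, and 0 to 1 without 1 replicate. With no minimum fold, 15 other genes of the apparatus were higher and 20 lower there, against 6 and 11. In quiescent cells against whole liver, the 1 other gene called lower became 0 at a mean of at least 5 TPM. Cnn1 in UDP-glucose against control cultures changed sign without 1 replicate, at log2 fold changes from -0.15 to 0.29 (-0.016 without UDP-glucose replicate 2). So did its share of the calponins, from -0.047 to 0.0045 percentage points (0.0029 without control replicate 2), and the difference in the share of Tagln between quiescent cells and liver, from -0.26 to 3.49 points. Acta2 in stellate-like cells was 10.2 CPM with at most 10% mitochondrial UMIs, against 0.822 CPM. Its 13 UMIs there must include the 10 of 1 cell that was in cluster 19. The cause of the other changes was not tested. Depth is unknown for the bulk libraries, and counts of 0 or 1 UMI limit Acta2, Actg2, Lmod1 and Cnn1 in stellate-like cells.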
